A study of Mus musculus with 4 samples.

Results

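Cirbp and Rbm3 encode the cold-inducible RNA-binding proteins CIRBP and RBM3. They were taken by gene symbol, as 2 of the 23997 rows of a deposited expression table of follicular T helper (Tfh) cells, which are CD4 T cells of B cell follicles and germinal centres. Both symbols were found, and both were among the 11187 genes with a mean of 1 FPKM or more that were tested. FPKM are fragments per kilobase of transcript, corrected for library size. The pair was chosen because their levels differ between the genotypes in these same libraries, so their own values are given as a description, with no test.

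The Tfh cells came from lymph nodes and spleens of 13-week-old C57BL/6 mice. The 2 WT libraries are from wild type mice and the 2 Apoe-/- libraries from mice that lack apolipoprotein E, a carrier protein of plasma lipoproteins, and are prone to atherosclerosis. The labels name no treatment or diet, do not say how the cells were sorted, and do not say whether a library is 1 animal or a pool. The p-values given for other genes thus rest on the spread between these 4 libraries alone, and that spread may be technical.

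CIRBP and RBM3 are small, closely related proteins with an RNA recognition motif at one end and a glycine-rich tail. Mild cooling raises both messages in many mammalian cells, whereas heat and misfolded protein activate heat shock factor and induce many chaperones. Both proteins bind messages and influence their stability, translation or polyadenylation, and Cirbp follows the daily rhythm of body temperature. CIRBP released from cells can also act as an inflammatory signal through Toll-like receptor 4.

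A stretch before a listed Cirbp start site is shown because it holds the letters of an element described as mild cold responsive. The RefSeq promoter table (GRCm38.p6) lists 2 windows for Cirbp and 0 for Rbm3. The stretch below, chr10:80167589-80167777 on the plus strand, comes from the first Cirbp window, whose listed start site is at 80167839, and is restricted to the 189 bases that overlap no annotated Cirbp exon. It lies inside the RefSeq span of the gene, which begins upstream at 80165990, so it precedes only some of the annotated transcripts. Capitals mark the letters TCCCCGCC of the cold element and the GC boxes.
Cirbp: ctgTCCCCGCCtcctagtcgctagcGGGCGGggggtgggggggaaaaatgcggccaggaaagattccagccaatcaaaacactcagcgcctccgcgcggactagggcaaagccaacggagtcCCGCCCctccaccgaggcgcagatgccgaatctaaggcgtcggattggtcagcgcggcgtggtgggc

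TCCCCGCC, searched on both strands, was found 1 time in this stretch, at 80167592 to 80167599 on the plus strand. Of the 32851 promoter windows in the table, cut to the same length, 2.86% hold it. Since the stretch is shown for these letters, nothing is read from that share. The other Cirbp window was not searched. The GC box GGGCGG, a sequence bound by SP1, was found 2 times, at 80167614 to 80167619 on the plus strand and at 80167711 to 80167716 on the minus strand, against 22.6% of all windows with at least 1. No GC box overlaps the cold element. The E-box CACGTG, the cAMP response element TGACGTCA and the heat shock element core GAANNTTC had 0 matches here and were held by 3.99%, 0.685% and 4.89% of all windows. These are matches of letters only and say nothing about binding in Tfh cells.

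Cirbp was measured at 85.6 and 84.7 FPKM in WT replicates 1 and 2 and at 187 and 170 FPKM in Apoe-/- replicates 1 and 2. Both Apoe-/- libraries lay above both WT libraries, and the WT pair was nearly identical. The group mean was 85.2 ± 0.611 FPKM for WT and 178 ± 11.5 FPKM for Apoe-/- cells (SD, n = 2 each). The mean was thus 2.09-fold higher in Apoe-/- cells, and the lowest Apoe-/- value was 1.99 times the highest WT value. On the log2(FPKM + 1) scale the difference was 1.06, with 1.11 between the libraries numbered 1 and 1.0 between those numbered 2.

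Rbm3 was the more abundant of the pair in every library. Its values were 286 and 312 FPKM in WT replicates 1 and 2 and 460 and 537 FPKM in Apoe-/- replicates 1 and 2. Both Apoe-/- libraries were again above both WT libraries, with more spread inside each genotype than Cirbp had. The mean was 299 ± 18.5 FPKM for WT and 498 ± 54.5 FPKM for Apoe-/- cells (SD, n = 2 each), 1.67-fold higher in Apoe-/- cells. The lowest Apoe-/- value was 1.47 times the highest WT value, while the libraries of one genotype differed by 1.09-fold in WT and 1.17-fold in Apoe-/- cells. The log2 difference was 0.73, with 0.68 within number 1 and 0.78 within number 2.

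**Figure D1:**
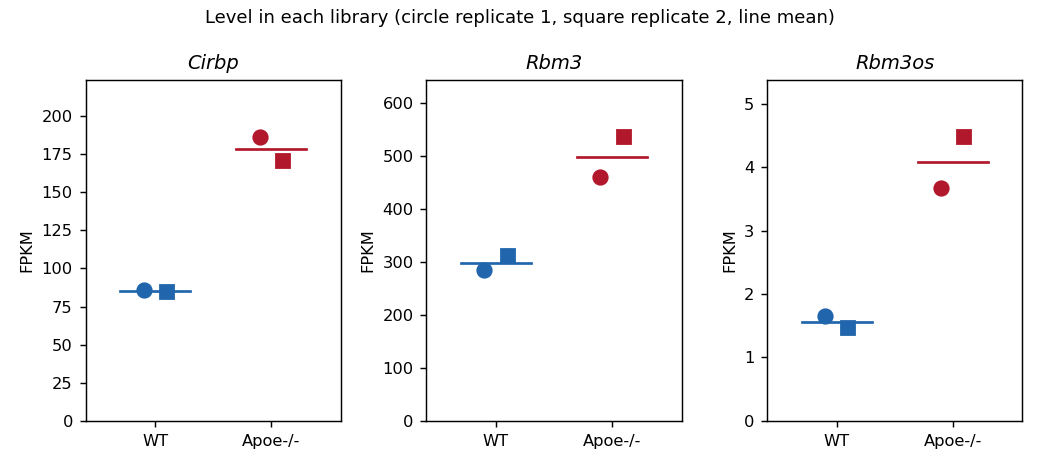
FPKM of Cirbp, Rbm3 and the antisense gene Rbm3os per library (WT blue, Apoe-/- red), with circles for replicate 1, squares for replicate 2 and lines for group means. Both Apoe-/- libraries lie above both WT libraries in each panel, with Cirbp means of 85.2 and 178 FPKM.

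Over all tested genes, 27.5% had both Apoe-/- libraries above both WT libraries. A limma test of the genotypes with Benjamini-Hochberg adjustment over all genes called 106 higher (0.948%) and 99 lower (0.885%) in Apoe-/- cells. At an unadjusted p under 0.05, 1296 genes (11.6%) were higher and 925 (8.27%) lower. Leaving out WT replicate 1 gave 65 higher and 61 lower, and leaving out WT replicate 2 gave 54 and 67. Leaving out Apoe-/- replicate 1 gave 257 and 164, and leaving out Apoe-/- replicate 2 gave 317 and 301. By size of the log2 difference Cirbp ranked 76 and Rbm3 224 of 11187, counted from the highest. Since the pair was chosen on this contrast, nothing is read from these ranks.

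The ratio of the pair is given as a description too, since both genes were chosen on this contrast, and its difference between genotypes was not tested. Rbm3 stood at 3.34 and 3.68 times the FPKM of Cirbp in WT replicates 1 and 2, and at 2.47 and 3.15 times in Apoe-/- replicates 1 and 2. The ratio was lower in both Apoe-/- libraries than in either WT library, and Apoe-/- replicate 2 was the closer of these to WT. Within the Apoe-/- pair the genes varied in opposite directions, Cirbp being higher in replicate 1 and Rbm3 in replicate 2. The summed FPKM of both genes was 371 and 397 in WT and 646 and 707 in Apoe-/- libraries.

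Among the tested genes of each library, ordered by FPKM, Rbm3 ranked 236 and 215 in WT replicates 1 and 2 and 143 and 131 in Apoe-/- replicates 1 and 2. Cirbp ranked 931 and 964 in WT and 353 and 403 in Apoe-/- libraries. Both genes were therefore among the abundant messages of these cells in either genotype.

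The values are sums over each gene and do not separate its transcripts. GENCODE M21 lists 7 Cirbp transcripts, of which 2 are protein coding, 1 is a target of nonsense-mediated decay and 4 retain an intron. For Rbm3 it lists 11, of which 6 are protein coding, 2 are targets of nonsense-mediated decay, 2 retain an intron and 1 is another noncoding transcript. Whether coding or noncoding forms make up the difference cannot be told from the table.

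Cirbp lies on chromosome 10 at 80165990 to 80172786, and Rbm3 on chromosome X at 8138975 to 8145880 (RefSeq, GRCm38), so they share no locus with each other or with Apoe on chromosome 7. Rbm3 is overlapped over 454 bases by Rbm3os, a long noncoding RNA read from the opposite strand at 8145427 to 8147964. Rbm3os was at 1.66 and 1.47 FPKM in WT replicates 1 and 2 and at 3.67 and 4.48 FPKM in Apoe-/- replicates 1 and 2. All values are low, and the genotypes do not overlap.

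Rbm3os rose in Apoe-/- cells by 0.98 ± 0.14 SE on the log2(FPKM + 1) scale (limma, adjusted p = 0.0451). The adjusted p rose to 0.0713 when WT replicate 1 was left out, to 0.121 when WT replicate 2 was, and to 0.0958 with no FPKM filter, which each ended the call, over a range of 0.00225 to 0.121. Any strand setting of the counting is not given in the sources used here, and without strand the reads of Rbm3 and Rbm3os in the shared bases cannot be told apart.

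The other neighbours did not pass the test. On either side of Rbm3, Wdr13, a WD repeat gene 6116 bases away, was at 15.5 ± 0.317 FPKM in WT and at 14.3 ± 0.419 in Apoe-/- cells (adjusted p = 0.592, n = 2 each, limma). Tbc1d25, a gene of a Rab GTPase-activating protein 8589 bases away, was at 8.06 ± 0.286 and 8.64 ± 0.409 FPKM (adjusted p = 0.700, n = 2 each, limma). Next to Cirbp, Midn, the gene of the nuclear protein midnolin, was at 57.3 ± 8.99 and 54.4 ± 8.46 FPKM (adjusted p = 0.836, n = 2 each, limma). On its other side 1600002K03Rik, 157 bases away and read from the same strand, was at 18.0 and 12.2 FPKM in WT and 7.85 and 9.73 FPKM in Apoe-/- libraries (adjusted p = 0.159, limma). Thus the mean of this close neighbour was lower, not higher, in Apoe-/- cells.

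Rbm3 is X-linked, and the labels do not give the sex of the mice. Xist, the noncoding RNA of the inactive X chromosome, was at 113 and 142 FPKM in WT and 108 and 146 FPKM in Apoe-/- libraries. The Y-linked genes Ddx3y, Kdm5d, Uty and Eif2s3y were listed at 0 in all 4 libraries. These genes were looked up after the values of Rbm3 were known, and by these genes the 4 libraries did not separate by sex.

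The genes most like Cirbp over the 4 libraries were found by the Euclidean distance between profiles of log2(FPKM + 1), each centred on its own mean. The nearest were Mcoln2 (distance 0.023), an endolysosomal ion channel, Ccl5 (0.079), a chemokine of T and NK cells, Npcd (0.085), Rpl31-ps12 (0.088), a ribosomal pseudogene, and Slc2a9 (0.10), a urate transporter. Ccl5, the most abundant of these, was at 108 ± 2.54 FPKM in WT and at 215 ± 9.52 in Apoe-/- cells (n = 2 each). Mcoln2 was at 2.91 ± 0.0524 and 7.20 ± 0.419 FPKM. Npcd, at 0.325 and 0.380 FPKM in WT and 1.87 and 1.54 FPKM in Apoe-/- libraries, reached the FPKM filter only through the Apoe-/- libraries. Its likeness to Cirbp is thus partly fixed by the filter. By mean FPKM, Apoe-/- over WT, Npcd was at 4.84-fold, Rpl31-ps12 at 2.81, Mcoln2 at 2.47, Slc2a9 at 2.30 and Ccl5 at 1.99. Cirbp was at 2.09-fold. Adding 1 FPKM shrinks log2 differences at low levels, so the nearness of the genes of low FPKM partly rests on it.

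The genes nearest to Rbm3 were different ones. They were Fan1 (distance 0.054), a DNA repair nuclease, Hist1h3a (0.063), a histone H3 gene, Zfp784 (0.071), a zinc finger gene, Smpd5 (0.073), a sphingomyelinase gene, and Slc25a20 (0.074), the mitochondrial carnitine carrier. Slc25a20 was at 19.4 ± 0.632 FPKM in WT and at 34.4 ± 3.73 in Apoe-/- cells (n = 2 each). The distance between Cirbp and Rbm3 was 0.42, which placed Rbm3 at 177 in the order of genes nearest to Cirbp and Cirbp at 727 in the order around Rbm3. With 4 libraries in 2 groups, such a likeness mostly restates the genotype difference.

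The family of RNA-binding proteins to which the pair belongs was examined through 26 other genes of heterogeneous nuclear ribonucleoproteins (hnRNPs), which package and splice pre-mRNA, and of RBM proteins. All 26 were tested by limma, 0 rose, 1 fell and 25 did not pass, and at an unadjusted p under 0.05 there were 5 lower and 0 higher, against 8.27% and 11.6% of all tested genes. Their median log2 difference was -0.17, against 0.00 over all tested genes, and 21 of the 26 differences were below 0. With 1 library left out and under the other settings this median stayed between -0.27 and -0.034.

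The family member that fell was Rbm14, a paraspeckle protein and transcriptional coactivator. It was at 29.3 and 26.0 FPKM in WT replicates 1 and 2 and at 15.1 and 15.8 FPKM in Apoe-/- replicates 1 and 2, with no overlap. Its log2 difference was -0.80 ± 0.11 SE (limma, adjusted p = 0.0432). The adjusted p rose to 0.152 when WT replicate 1 was left out, to 0.0960 when WT replicate 2 was, and to 0.0832 with no FPKM filter, which each ended the call, over a range of 0.00353 to 0.152.

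The most abundant family members were Hnrnpf, Hnrnpk and Hnrnpa2b1, splicing regulators at 446 ± 34.5, 389 ± 30.4 and 388 ± 68.6 FPKM in WT. In Apoe-/- cells they were at 382 ± 42.1, 346 ± 57.1 and 320 ± 54.7 FPKM (n = 2 each), and none passed (adjusted p = 0.337, 0.522 and 0.426, limma). By mean FPKM, a level per transcript length, Rbm3 ranked 5 of the 28 genes in WT, after these 3 and Rbm39, and 1 in Apoe-/- cells. Cirbp ranked 18 in WT and 9 in Apoe-/- cells. In WT, Rbm3 and the next gene in this order, Hnrnph1 at 287 ± 45.8 FPKM, differed by less than their spread.

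**Figure D2:**
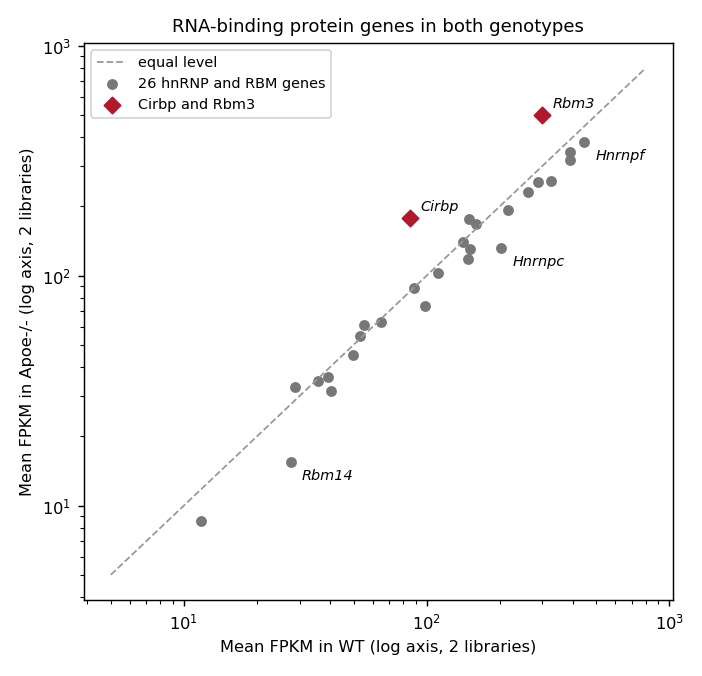
Mean FPKM in WT against mean FPKM in Apoe-/- cells for Cirbp and Rbm3 (red diamonds) and 26 hnRNP and RBM genes (grey circles), on log axes, with a dashed line of equal level. Cirbp and Rbm3 lie above the line, at 2.09-fold and 1.67-fold, and Rbm14 is the grey point farthest below it.

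Cold shock domain proteins share the name but not the fold of CIRBP and RBM3. Of 8 listed genes 4 were tested and 0 passed in either direction by limma (median log2 difference -0.11), nor did any have an unadjusted p under 0.05. Ybx1, which coats messenger RNA, was at 212 ± 1.70 FPKM in WT and at 197 ± 6.53 in Apoe-/- cells (adjusted p = 0.536, n = 2 each, limma). Ybx3 was at 67.1 and 65.5 FPKM.

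Splicing kinases and SR proteins were included because the activity of CLK kinases responds to body temperature and Srsf5 is itself raised by cooling in some cells. Of these 18 genes 0 passed in either direction by limma (median -0.089), and at an unadjusted p under 0.05 there were 1 higher and 5 lower, where all tested genes had 11.6% and 8.27%. Srsf5 was at 554 and 628 FPKM in WT and 588 and 665 FPKM in Apoe-/- libraries, so the genotypes overlapped (adjusted p = 0.699, limma). Clk1 was at 307 and 394 FPKM in WT and 198 and 283 FPKM in Apoe-/- libraries, without overlap (log2 difference -0.55 ± 0.20 SE, adjusted p = 0.224, limma). Without Apoe-/- replicate 2 Clk1 passed (adjusted p = 0.00938, range over all settings 0.00261 to 0.658). Srsf2 was at 243 and 249 FPKM.

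Reported regulators and partners of the pair did not pass either, with 0 of 12 tested by limma (median -0.17) and 2 lower at an unadjusted p under 0.05 (8.27% of all tested genes were lower). This list holds the transcription factor SP1, the kinase GSK3B, the arginine methyltransferase PRMT1 and the import receptor TNPO1, which act on CIRBP, and proteins of stress granules, where CIRBP can gather. Sp1 was at 29.4 and 33.5 FPKM in WT and 27.3 and 36.0 FPKM in Apoe-/- libraries, which overlap. Hnrnph1, reported to control Rbm3 splicing, was at 287 and 254 FPKM, Hif1a, a hypoxia factor, at 289 and 223 FPKM, and G3bp1, a stress granule core protein, at 90.0 and 73.5 FPKM (adjusted p = 0.614, 0.287 and 0.172, limma). Without Apoe-/- replicate 2 Hif1a passed (adjusted p = 0.0437, range 0.00619 to 0.777). Trpv4, an ion channel reported to act on both genes, was below the FPKM filter.

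Of reported RNA targets, 0 of 9 tested passed by limma (median -0.059), with 2 lower at an unadjusted p under 0.05, a level reached by 8.27% of all tested genes. Txn1, the gene of thioredoxin, was at 145 ± 7.16 FPKM in WT and at 161 ± 9.08 in Apoe-/- cells (adjusted p = 0.446, n = 2 each, limma). Rpa2, a subunit of the single-stranded DNA binding complex, was at 23.8 and 25.6 FPKM, and Rtn3, a reticulon made under the control of RBM3 in neurons, at 70.0 and 72.1 FPKM. Of the 4 genes of receptors for extracellular CIRBP 3 were tested and 0 passed by limma, with 0 at an unadjusted p under 0.05. Tlr4 was low in every library, from 1.48 to 1.78 FPKM. Its partner Ly96 was at 10.1 ± 1.94 and 9.06 ± 4.42 FPKM and Il6ra at 50.5 and 54.8 FPKM.

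The heat shock factor and chaperone list stood on the other side of 0. All 20 members were tested, 2 fell, 0 rose and 18 did not pass. At an unadjusted p under 0.05 by limma, 16 were lower and 0 higher, as were 8.27% and 11.6% of all tested genes. All 20 differences were negative, with a median of -0.48 on the log2 scale, and 18 genes had both Apoe-/- libraries below both WT libraries, as did 22.9% of all tested genes. The exceptions to the last count were Hsf2 and Hspa4. The median was -0.48 within number 1 and -0.44 within number 2, and stayed between -0.53 and -0.36 under all settings. No test of the list as a whole was made.

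Hsph1, an HSP110 chaperone and nucleotide exchange factor of HSP70, was at 134 and 151 FPKM in WT replicates 1 and 2 and at 33.3 and 37.4 FPKM in Apoe-/- replicates 1 and 2. It fell 4.04-fold in mean FPKM (log2 difference -1.98 ± 0.11 SE, limma adjusted p = 0.00802), and kept its call in all 12 alternatives. Dnaja1, an HSP40 cochaperone, was at 117 and 148 FPKM in WT and 48.1 and 59.5 FPKM in Apoe-/- libraries. It fell 2.46-fold (-1.28 ± 0.16 SE, limma adjusted p = 0.0341), a call that ended in 1 alternative, with no FPKM filter (adjusted p = 0.0816, range 0.000118 to 0.0816).

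The most abundant chaperones did not pass. Hspa8, the constitutive HSP70, was at 1464 and 1586 FPKM in WT and 1080 and 1220 FPKM in Apoe-/- libraries (adjusted p = 0.102, limma). Hsp90ab1 was at 1123 and 1197 FPKM in WT and 930 and 990 FPKM in Apoe-/- libraries (adjusted p = 0.153, limma). Hsp90aa1 was at 442 ± 79.7 and 319 ± 62.0 FPKM (adjusted p = 0.236, n = 2 each, limma). Without Apoe-/- replicate 2, Hspa8 and Hsp90aa1 passed (adjusted p = 0.0371 and 0.0259, over ranges of 0.00179 to 0.467 and 0.00144 to 0.716). Hsf1, the main heat shock transcription factor, was at 34.5 and 30.0 FPKM in WT and 27.2 and 26.6 FPKM in Apoe-/- libraries (adjusted p = 0.300, limma).

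**Figure D3:**
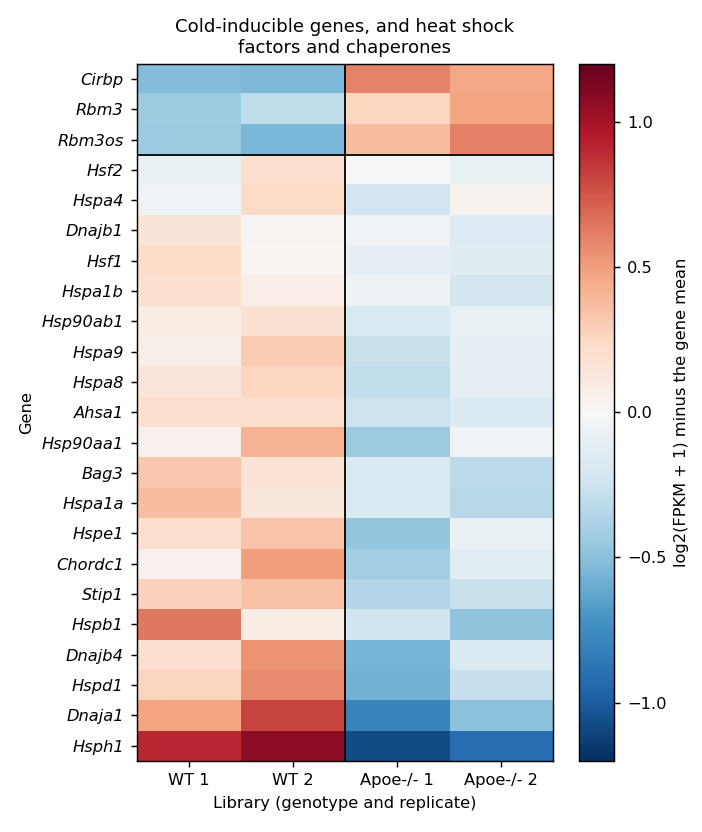
Colour shows log2(FPKM + 1) minus the gene's mean for Cirbp, Rbm3 and Rbm3os (top) and 20 heat shock factors and chaperones (below, ordered by difference) in each library. The top rows are high in the Apoe-/- columns and most chaperone rows are low there, with Hsph1, at 143 and 35.3 FPKM, the most extreme.

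Core clock genes were listed because Cirbp has been tied to clock gene output. Of 13 tested genes 0 passed in either direction by limma (median -0.13), with 4 lower at an unadjusted p under 0.05, against 8.27% of all tested genes. Per1, a repressor of the clock, was at 101 and 85.5 FPKM in WT and 62.0 and 50.1 FPKM in Apoe-/- libraries, without overlap (-0.73 ± 0.15 SE, adjusted p = 0.0858, limma). It passed without Apoe-/- replicate 1 (adjusted p = 0.00942, range 0.00118 to 0.220). Bhlhe40 was at 236 and 216 FPKM and the activator Arntl at 26.2 and 21.0 FPKM. The labels do not give the hour at which cells were taken. Over all 8 lists, 101 distinct genes were tested, 3 fell and 0 rose, against 0.885% and 0.948% of all tested genes. The count that fell varied with the library left out, as did the count over all tested genes.

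**Figure D4:**
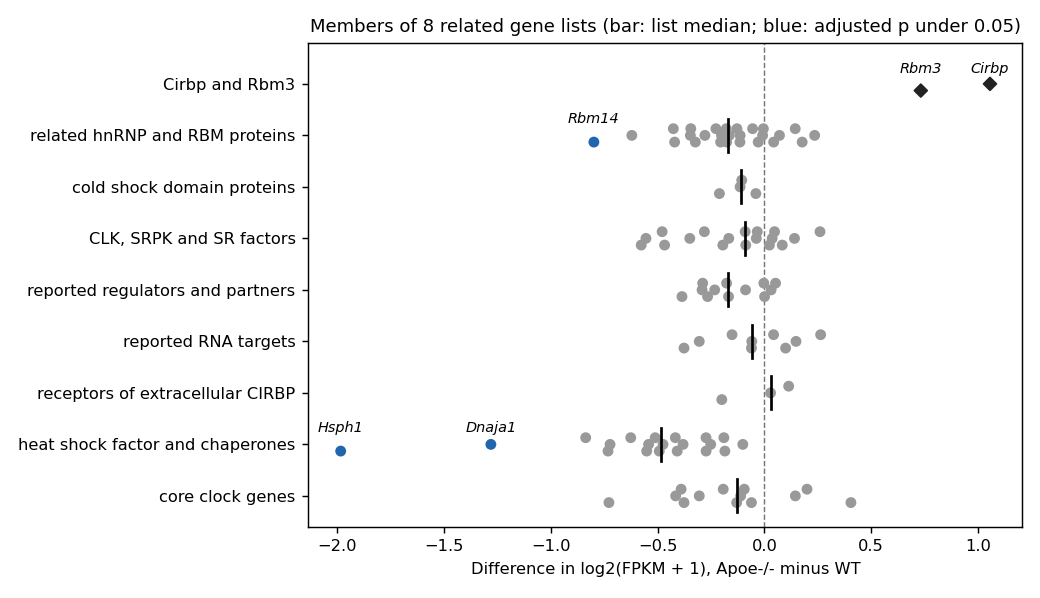
Difference in log2(FPKM + 1), Apoe-/- minus WT, for Cirbp and Rbm3 (black diamonds) and for the tested members of 8 related lists (circles, blue where the adjusted p is under 0.05, bars at list medians). Cirbp (1.06) and Rbm3 (0.73) lie to the right of every listed gene, and the chaperone list has a median of -0.48.

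The libraries are labelled as Tfh cells, and all 12 Tfh and CD4 T cell markers reached the FPKM filter. Markers of other cells were present as well. With no library of other T cells to compare, Tfh identity was not tested. FPKM totals were 522371 to 551289.5 and read depth is not known. Apoe was at 136 ± 12.1 FPKM in WT and at 5.15 ± 0.0865 in Apoe-/- libraries (n = 2 each). Of 12 Tfh and CD4 T cell markers, including Cd4 (367 and 407 FPKM) and Cd3e (290 and 302 FPKM), 0 passed by limma, with 3 higher and 1 lower at an unadjusted p under 0.05, where all tested genes had 11.6% and 8.27%. Their summed level was 2093 to 2121 FPKM in WT and 2191 to 2216 FPKM in Apoe-/- libraries. In bulk RNA, a change in the number of cells of a type and in the RNA per cell cannot be told apart.

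Markers of several other cell types also differed between the genotypes, some lower and some higher in Apoe-/- cells. Their part in the levels of Cirbp and Rbm3 was not tested. At the adjusted threshold, 0.948% of all tested genes were higher and 0.885% lower (limma). The summed B cell markers were at 337 to 342 FPKM in WT and 199 to 209 FPKM in Apoe-/- libraries, and 4 of 10 fell, among them Cd22, Fcer2a and Cr2. All 10 were lower at an unadjusted p under 0.05 by limma, as were 8.27% of all tested genes. Neutrophil markers were at 7.45 to 9.20 and 50.0 to 66.8 FPKM, and the 4 of 10 that reached the FPKM filter rose (S100a8, S100a9, Retnlg and Csf3r), while Camp and Elane were listed at 0 in all libraries. Retnlg, at 0.124 and 0.297 FPKM in WT and 3.67 and 4.80 FPKM in Apoe-/- libraries, reached that filter only through the Apoe-/- libraries, so its call is partly fixed by the filter. CD8 T and NK cell markers were at 40.9 to 43.2 and 82.6 to 89.7 FPKM with 1 of 8 tested rising (Nkg7). Dendritic cell markers were at 10.5 to 11.6 and 22.2 to 24.5 FPKM with 1 of 6 rising (Itgax). Macrophage and monocyte markers were at 242 to 277 and 306 to 346 FPKM with 1 of 11 rising (Vsig4). At an unadjusted p under 0.05 by limma, 5 of the 8, 5 of the 6 and 5 of the 11 were higher. In each of these lists 0 were lower, while 11.6% of all tested genes were higher and 8.27% lower. Vsig4 likewise reached the filter only through the Apoe-/- libraries, at 2.25 and 4.72 FPKM against 0.148 FPKM in WT replicate 1 and a listed 0 in WT replicate 2. Plasma cell markers were at 88.3 to 96.3 and 86.1 to 88.8 FPKM with 1 of 4 rising (Igj, log2 difference 1.34), while Xbp1 and Mzb1 of the same list had differences of -0.48 and -0.47 (adjusted p = 0.102 and 0.108, limma). Stromal markers were at 52.7 to 55.3 and 51.8 to 52.0 FPKM, with Pdpn listed at 0 in all libraries. Of the 7 stromal markers only Pecam1 reached the FPKM filter, and it made up nearly all of these sums. It was at 51.9 and 54.7 FPKM in WT and 51.1 and 51.2 FPKM in Apoe-/- libraries. Platelet markers were at 1.01 to 1.16 and 1.15 to 2.39 FPKM, and 0 of the 5 reached the FPKM filter, so none was tested. Erythroid markers were at 19.1 to 23.4 and 8.53 to 33.1 FPKM, and 3 of 6 were tested. Of these 3, 0 passed by limma and 2 were lower at an unadjusted p under 0.05 (8.27% of all tested genes). The erythroid sum of 33.1 FPKM rests largely on Hbb-bs, at 20.8 FPKM in Apoe-/- replicate 1 and at most 0.0168 FPKM in every other library. Hbb-bs reached the FPKM filter only through that library. The call of Cd22 ended without WT replicate 1 (adjusted p = 0.118, limma) and without WT replicate 2 (0.123). Without WT replicate 2 those of Cr2 and Itgax also ended (0.0818 and 0.0571), and that of the neutrophil gene Csf3r ended without WT replicate 1 (0.0709) or 2 (0.121). With no FPKM filter the calls of Cd22 (adjusted p = 0.0641, limma), Cr2 (0.102), Csf3r (0.0858), Itgax (0.0672), Vsig4 (0.0945) and Igj (0.0672) ended, and that of Cr2 also ended with a mean FPKM of 5 or more (0.0565).

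The differences of Cirbp and Rbm3 under other settings are given as a description, since the pair was chosen on this contrast. The FPKM filter, the trend and the replicate block cannot alter them, whereas the pseudocount, rescaling and leaving out a library can. Over these the Cirbp difference ranged from 0.99 to 1.12 and that of Rbm3 from 0.62 to 0.84 on the log2 scale. Both extremes of each gene came from leaving out 1 Apoe-/- library. Without Apoe-/- replicate 1 the differences were 0.99 for Cirbp and 0.84 for Rbm3, and without Apoe-/- replicate 2 they were 1.12 and 0.62.

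**Figure D5:**
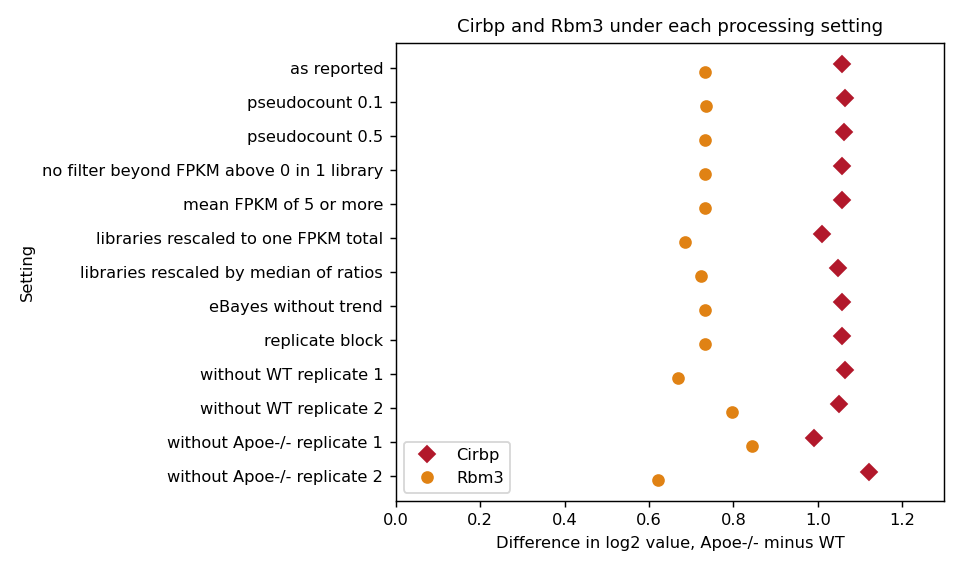
Difference in log2 value between Apoe-/- and WT for Cirbp (red diamonds) and Rbm3 (orange circles) under each processing setting. Cirbp stays between 0.99 and 1.12 and Rbm3 between 0.62 and 0.84.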

How the data were processed

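The authors deposited 1 table of FPKM, with a row per gene symbol and a column for each of the 4 libraries. Per the submitters' processing notes the tools were TopHat2 2.0.13, Cuffdiff 2.2.0 and CASAVA 1.8.2 and the build was mm10, in an order that is not stated. The sources used here give no annotation, strand setting or filter. In 2 rows a space replaces a tab, and rows were split on white space. FPKM are not counts, so log2(FPKM + 1) was tested, for genes averaging at least 1 FPKM, with limma 3.58.1 in R 4.3.3 (lmFit, eBayes with trend, two-sided, Benjamini-Hochberg adjustment, threshold 0.05). Data for Apoe-/- against WT were also simulated (11075 genes). Of 100 genes with a true log2 change of 1, 77% were called, and of 100 with a change of 2, 100%. Of all 186 calls 9 were false. The changed genes were drawn only from the more abundant ones. The noise was independent and normal, with its spread averaged over genes of like level. These shares thus do not carry over to genes of low FPKM or of uneven spread. SDs are over 2 libraries.

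The members, lists and tests were chosen with earlier results of these data known. Named genes are Cirbp, Rbm3 and Apoe, list members that passed, the 3 most abundant of each list (for marker lists, given here mostly as sums), the 5 nearest profiles to each member and the nearest tested genes on the chromosome. Others named in the text (Hsf1, Hsf2, Hspa4, Sp1, Trpv4, Camp, Elane, Pdpn, Rbm39, Xist and the Y-linked genes) were chosen after their values were seen. Igj and Emr1 are the table's older symbols of Jchain and Adgre1. Values of 2 single list genes are not reported here. Protein sequences were not used here, so the planned comparison of the proteins was not made. Alternatives were pseudocounts of 0.1 and 0.5, other FPKM filters, rescaled libraries, no trend, a replicate block and leaving out each library.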

Additional observations from a re-analysis of the deposited data

How the results depend on the processing

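The counts of called genes depended on the settings. Over all genes, 106 (0.948%) were called higher and 99 (0.885%) lower. With no FPKM filter these were 35 and 41, and with a mean FPKM of 5 or more 51 were higher. With 1 library left out, 54 to 317 were higher and 61 to 301 lower, the lone library being assumed to vary like the other group. Of the 101 related genes 3 were called lower, against 1 with no FPKM filter, 5 with libraries rescaled by the median of ratios, and 2 to 16 with 1 library left out, the highest without Apoe-/- replicate 2. The Cirbp difference was 0.99 to 1.12 and the Rbm3 difference 0.62 to 0.84 with 1 library left out.

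With the replicate number as a block, 1908 genes were higher and 1776 lower, and of the related genes 6 were higher and 51 lower. Nothing in the labels says that a number marks a common animal or day. Deviations of equal numbers from their group means correlated at 0.21 across genes, which are not independent replicates.

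Differences near 0 turned sign in some settings. With 1 library left out, that of Hnrnph1 ranged from -0.37 to 0.019, Ly96 from -0.66 to 0.26, Srsf2 from -0.050 to 0.12, Cd3e from -0.0034 to 0.12, Ybx3 from -0.15 to 0.073, Srsf5 from -0.0067 to 0.17, Tlr4 from -0.043 to 0.10, Rtn3 from -0.013 to 0.099 and Midn from -0.23 to 0.084. With libraries rescaled to one FPKM total those of Srsf2, Rtn3 and Tlr4 became -0.011, -0.0043 and -0.00094. The cause was not tested.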
